A study of Anser cygnoides with 6 samples.

Results

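Lipoprotein lipase and the other gene models with a lipase name were followed in the liver of 6 lion-head geese (Anser cygnoides), a large meat breed. Members were the models whose description held the word lipase, leaving out those in which it stood only inside a phospholipase, sphingomyelinase or lipase maturation name. The rule found 46 of 21009 gene models. One model, lipoprotein lipase on chromosome 4, was chosen by its measured values, selected on its lower counts in the livers of high-intake-fed birds, so its contrast is described here without a test. The other 45 were taken by the name rule, which was set with earlier results of these data known. Purebred geese entered the study at 120 days of age. The 3 normally-fed geese ate freely and the 3 high-intake-fed geese were force-fed in the foie gras manner with a diet that included boiled rice, and all birds were without feed overnight from day 38 until they were killed. Each group was housed in its own isolator, so feeding and housing cannot be told apart. Each library was the liver RNA of 1 bird, and the sex of the sequenced birds was not stated. Totals ran from 14154910 to 16993373 counts per library. In whole-liver RNA, fewer cells of a type and less RNA per cell cannot be told apart.

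Triglyceride lipases cut fatty acids from glycerol. Lipoprotein lipase works on the wall of capillaries, where it cuts the triglyceride of chylomicrons and very low density lipoproteins and so feeds fat and muscle, whereas hepatic lipase acts on remnant particles and high density lipoproteins in the liver, and endothelial lipase prefers phospholipids. Inside cells, fat droplets are broken down stepwise, the last step by monoglyceride lipase, and acid lipases act in lysosomes or in the gut. The goose liver is known for storing large amounts of fat on overfeeding, which in waterfowl is made largely in the liver and sent out in very low density lipoproteins.

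The 46 models fell into 6 groups by their descriptions. The lipoprotein and pancreatic lipase family held 9 models, the acid lipase family 7, intracellular lipases 4, the esterase and lipase fold 6, colipase and lipase domain names 4, and the PLAT domain, a fold that many unrelated proteins share with lipases, 16. Of the 46, 25 passed the filter on low counts and 24 averaged at least 1 CPM (counts scaled to library size with TMM factors) in either group. The 22 below that level had 0 to 22 counts in any library, and 1 of them had no count in any bird. A member near the filter could pass it through the group in which it was higher.

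**Figure D1:**
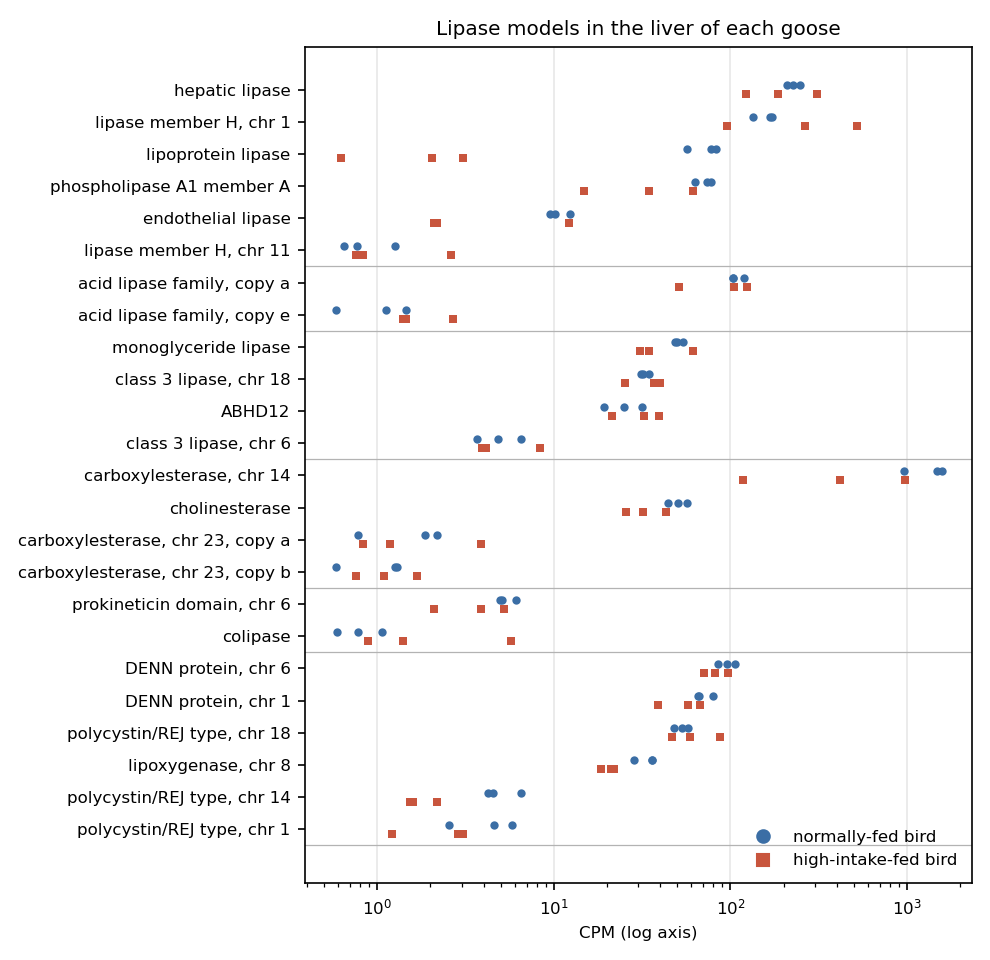
CPM on a log axis of the 24 models at or above 1 CPM, with 1 circle for each of the 3 normally-fed birds and 1 square for each of the 3 high-intake-fed birds, and lines between the 6 groups of models. The lipoprotein lipase squares, 0.625, 2.03 and 3.04, lie far below its circles, 77.3, 57 and 82.3, while the points of hepatic lipase and of the class 3 lipases overlap between the groups.

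Lipoprotein lipase had few reads in the livers of force-fed birds and many in those of normally-fed birds. The model (maker-Hic_scaffold_4-augustus-gene-352.4, chr4:35253082-35267549, minus strand, 1464 bases of coding sequence, coordinates as deposited) had 1164, 965 and 1279 counts in normally-fed birds 1 to 3 and 9, 32 and 50 in high-intake-fed birds 1 to 3. On the CPM scale these were 77.3, 57 and 82.3 against 0.625, 2.03 and 3.04. All 3 force-fed birds lay below all 3 normally-fed birds, and the gap between the groups was far wider than the spread inside either. The means were 72.2 ± 13.4 and 1.90 ± 1.21 CPM (SD, n = 3 each), a ratio of 38, and the fitted log2 fold change -5.23 ± 0.50 (SE). Of the 12914 models tested, 3 had a more negative value. The model was chosen by these values, so the gap, the fold change with its SE and this place are no test. The deposited FPKM showed the same order, with 15.9, 11.2 and 14.3 in normally-fed and 0.0771, 0.391 and 0.462 in high-intake-fed birds. Among the force-fed birds the lowest value was in bird 1, and each of the 3 libraries still held reads of the model.

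Genes next to lipoprotein lipase did not differ by a comparable amount. Within 600 kb on either side lay 8 models, of which 6 were tested, all on 1 side. Their log2 fold changes ran from -0.34 to 0.73 and none was called (lowest adjusted p 0.357). The nearest tested model, which carries a NIPSNAP domain, lay 159 kb away and had a log2 fold change of -0.27 ± 0.32. In the RefSeq goose assembly, which differs from the build used here and gives names only, lipoprotein lipase and endothelial lipase are both on the Z chromosome, and both lie on chromosome 4 of the deposited table. The median deviation of the 471 chromosome 4 models from their mean over the birds, less that of all other models, was 0.02, 0.06 and 0.07 on the log2 scale in normally-fed birds 1 to 3 and 0.04, -0.06 and -0.15 in high-intake-fed birds 1 to 3. The lowest offset was in high-intake-fed bird 3, and the part of a chromosome-wide offset or of sex in the change of lipoprotein lipase was not tested.

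**Figure D2:**
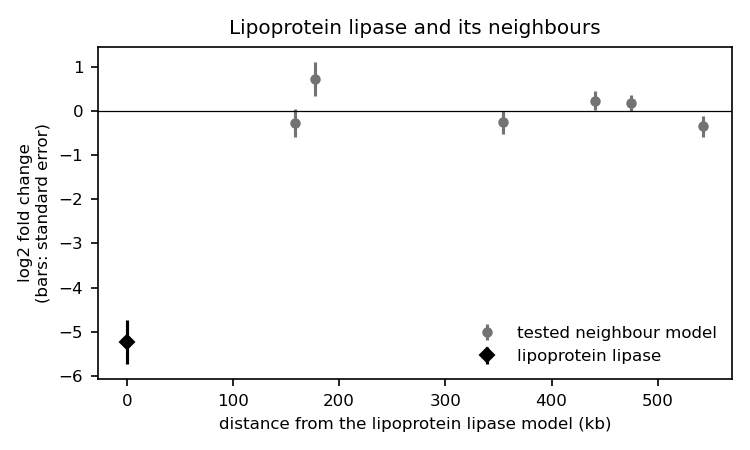
Log2 fold change, high-intake-fed over normally-fed, against the distance in kb from the lipoprotein lipase model, with standard errors as bars. The 6 tested neighbours (circles) stay between -0.34 and 0.73, and lipoprotein lipase (diamond) is at -5.23.

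None of the other 24 tested lipase models was called at an adjusted p under 0.05 by edgeR's quasi-likelihood test, where 1.47% of all 12914 tested models were (190, of which 107, or 0.829%, were lower and 83, or 0.643%, were higher). At the background share fewer than 1 call would be found among 24 models, so the count is not apart from it. At an unadjusted p under 0.05 there were 4 of 24, against 18.4% of all models. Of these 4, 2 were PLAT domain models, 1 an esterase fold model and 1 a colipase or lipase domain model. None was in the lipoprotein and pancreatic, acid or intracellular lipase groups. DESeq2 called 1 of the 24, where it called 938 of the 18727 models it tested, so that count is not apart from its background either. The median log2 fold change of the 24 was -0.18, against 0.04 over all tested models. By group it was -0.15 in the lipoprotein and pancreatic lipase family, 0.29 in the acid and 0.10 in the intracellular lipases. It was 0.16 in the esterase fold, 0.59 in the colipase and lipase domain models and -0.54 in the PLAT domain models. In 4 of the 24 the 3 force-fed birds all lay below the 3 normally-fed birds, and in none did they all lie above. Of those 4, 2 were PLAT domain models and 1 an esterase fold model. Over all tested models these shares were 13.3% and 11.1%.

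**Figure D3:**
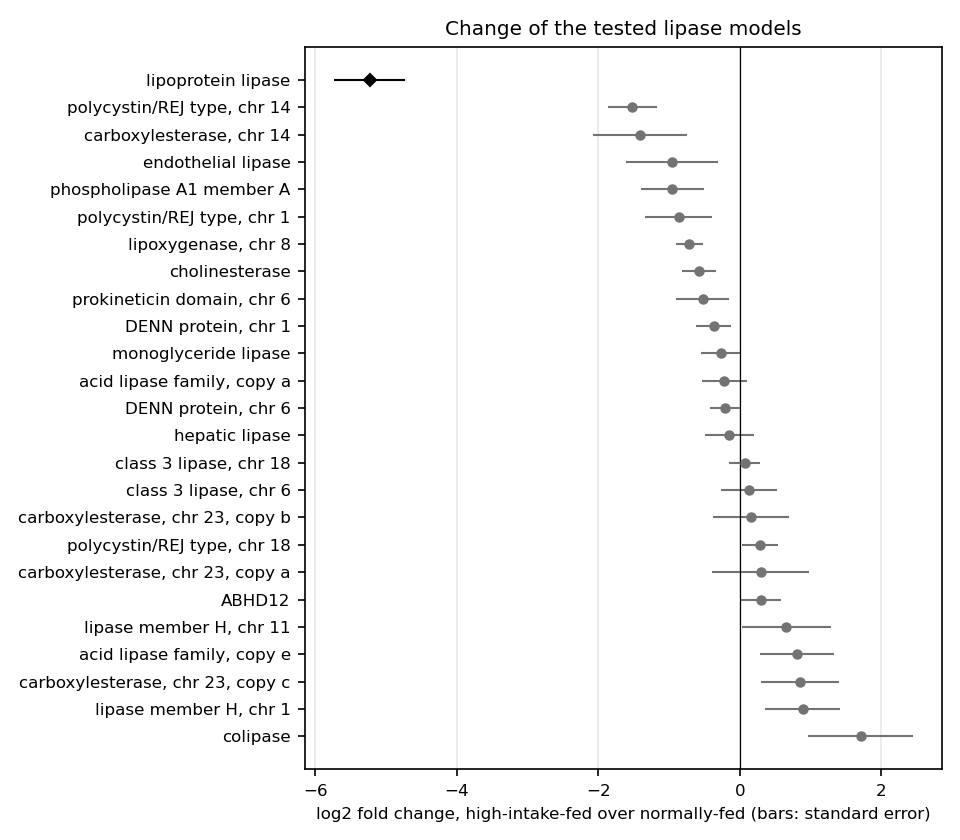
Log2 fold change with its standard error for the 25 tested lipase models, sorted. Lipoprotein lipase, chosen for this change, is the diamond at -5.23, and the other 24 run from -1.52 to 1.71.

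Among its close relatives, hepatic lipase had the highest CPM in 4 of 6 birds and did not pass the test. The model (chr13:18545784-18561038) had 249, 227 and 209 CPM in normally-fed and 186, 122 and 309 CPM in high-intake-fed birds. Force-fed birds lay both below and above the normally-fed range, and the log2 fold change -0.15 ± 0.35 was within that spread (adjusted p 0.872). Endothelial lipase (chr4:88237709-88255456) had 9.56, 12.3 and 10.2 CPM against 2.08, 12.2 and 2.19. High-intake-fed birds 1 and 3 were far below the normally-fed birds, whereas bird 2 was inside their range, so the groups overlapped (log2 fold change -0.96 ± 0.65, adjusted p 0.486). Without bird 2 the log2 fold change of endothelial lipase was -2.32 and the adjusted p 0.0258, a call that rested on leaving out that library.

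Phospholipase A1 member A, a serum enzyme in mammals that acts on phosphatidylserine, had 73.7, 77.9 and 62.8 CPM in normally-fed and 34.5, 14.7 and 61.4 CPM in high-intake-fed birds. The groups did not overlap, but high-intake-fed bird 3 was close to the normally-fed range and the log2 fold change -0.95 ± 0.44 did not pass the test (adjusted p 0.307). It was -1.54 without bird 3 and -0.58 without bird 2. Lipase member H, which in mammals makes lysophosphatidic acid, was found as a pair of models. The chromosome 1 model had 134, 167 and 173 against 263, 519 and 96 CPM, with bird 2 high and bird 3 below every normally-fed bird (log2 fold change 0.89 ± 0.53, adjusted p 0.422). Without high-intake-fed bird 2 its log2 fold change was 0.18. The chromosome 11 model was low, at 1.26, 0.767 and 0.644 against 0.834, 0.761 and 2.61 CPM, and its deposited FPKM was listed at 0 in 4 of the 6 libraries although each had at least 10 counts. The 3 pancreatic lipase type models on chromosome 8 had 0 to 12 counts in any library, so these livers gave almost no reads of pancreatic lipase.

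**Figure D4:**
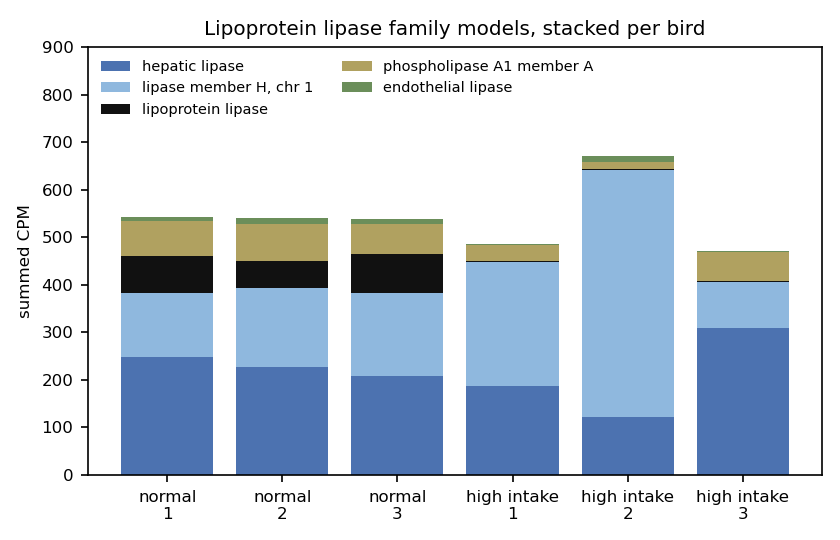
Summed CPM of the 5 lipoprotein lipase family models above 5 CPM, stacked for each bird (1 bar per bird, 3 per group). The black segment is lipoprotein lipase, visible in the 3 normally-fed birds and almost gone in the 3 high-intake-fed birds, where lipase member H on chromosome 1 or hepatic lipase fills most of the bar.

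The make-up of the family was compared per bird. Lipoprotein lipase held 14.2, 10.5 and 15.3% of the counts of the 9 family models in normally-fed birds and 0.128, 0.302 and 0.640% in high-intake-fed birds. This share follows from the change that chose the model. The family without lipoprotein lipase summed to 469, 485 and 456 CPM in normally-fed and 487, 669 and 472 CPM in high-intake-fed birds, ranges that overlapped. Lipase member H on chromosome 1 held 24.6, 30.8 and 32.1% of the family counts in normally-fed and 53.9, 77.3 and 20.2% in high-intake-fed birds, and hepatic lipase 45.5, 41.8 and 38.9% and 38.2, 18.2 and 65.1%. The force-fed birds thus differed among themselves, with birds 1 and 2 led by lipase member H and bird 3 by hepatic lipase.

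Levels were compared between models per kilobase of coding length. In normally-fed birds the carboxylesterase on chromosome 14 was first, at 982 ± 242 CPM per kb (SD, n = 3), followed by hepatic lipase at 160.4 ± 13.9, lipase member H on chromosome 1 at 114 ± 15, the acid lipase family model at 90.6 ± 8.04, monoglyceride lipase at 72.3 ± 4.03, phospholipase A1 member A at 53.3 ± 5.83 and lipoprotein lipase at 49.3 ± 9.18. Within 1 SD of each mean, phospholipase A1 member A and lipoprotein lipase overlapped, and the other neighbours in this order did not. In high-intake-fed birds lipoprotein lipase, at 1.30 ± 0.828 CPM per kb, stood 19th of the 24 models, and the carboxylesterase, at 368 ± 318, and lipase member H, at 210.3 ± 153, were first and second with wide spreads. By deposited FPKM lipoprotein lipase was 6th in the birds that ate freely and 18th in those that were force-fed. Counts and FPKM disagreed for some long or low models, so places among the low models are uncertain.

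The acid lipase family, which in mammals includes gastric lipase and lysosomal acid lipase, was represented by 1 abundant model. All 7 models lie on chromosome 8 in 2 clusters, and 5 carry the gastric triacylglycerol lipase name, which is a family name and does not tell these enzymes apart. The first of them, copy a (chr8:18310856-18322711) had 119.6, 103 and 103 CPM in normally-fed and 104, 124 and 51.5 CPM in high-intake-fed birds. Only bird 3 of the force-fed group was low, and the log2 fold change -0.22 ± 0.32 did not pass the test (adjusted p 0.778). Copy e was near 1 CPM (1.46, 1.12 and 0.579 against 1.46, 1.40 and 2.67, adjusted p 0.467), and the other 5, among them lipase member M, had 0 to 9 counts in any library.

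None of the 4 intracellular lipases was called, and in each the groups overlapped. Monoglyceride lipase, which releases the last fatty acid from glycerol, had 49.7, 53.9 and 48.6 CPM in normally-fed and 61.3, 30.6 and 34.7 CPM in high-intake-fed birds, with force-fed birds on both sides (log2 fold change -0.27 ± 0.28, adjusted p 0.674). ABHD12, known in mammals as a lysophosphatidylserine lipase as well as a monoacylglycerol lipase, had 19.1, 24.9 and 31.7 against 21.3, 39.3 and 32.5 CPM (log2 fold change 0.30 ± 0.29, adjusted p 0.638). A class 3 lipase model on chromosome 18 had 34.4, 31 and 31.9 against 39.9, 25.4 and 36.8 CPM (adjusted p 0.908). A second on chromosome 6 had 6.51, 4.84 and 3.67 against 3.89, 4.12 and 8.38 CPM (adjusted p 0.903). The class 3 fold is that of the diacylglycerol lipases. The standard errors of these 4, from 0.22 to 0.39 on the log2 scale, exceeded the log2 fold change in 3 of the 4, and a p that misses the threshold does not show equal levels.

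The esterases that share the lipase fold were led by the carboxylesterase on chromosome 14 (chr14:12379517-12387854), whose relatives in mammals hydrolyse triglyceride, cholesteryl esters and drugs in the liver. It had 1572, 962 and 1488 CPM in normally-fed and 417, 973 and 118 CPM in high-intake-fed birds. High-intake-fed bird 3 was the lowest and bird 2 was inside the normally-fed range, and the log2 fold change -1.42 ± 0.66 did not pass the test (adjusted p 0.308). It was -2.32 without high-intake-fed bird 2 and -0.95 without bird 3. This 1 model held 58.9, 47.3 and 57.4% of all lipase-named counts in normally-fed and 29.8, 45.6 and 11.2% in high-intake-fed birds. The 46 models together took 0.284, 0.209 and 0.237% of each library in normally-fed and 0.127, 0.205 and 0.120% in high-intake-fed birds. Without the carboxylesterase these were 0.117, 0.110 and 0.101% and 0.0893, 0.111 and 0.107%. A neighbouring carboxylesterase outside the rule had 449.7, 368 and 588 against 206, 99.1 and 155 CPM without overlap (log2 fold change -1.61 ± 0.34, adjusted p 0.0670).

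Cholinesterase, the plasma enzyme made by the liver, had 44.1, 50.3 and 56.9 CPM in normally-fed and 31.9, 43.3 and 25.7 CPM in high-intake-fed birds. The groups did not overlap, though the highest force-fed bird was just under the lowest normally-fed one (log2 fold change -0.58 ± 0.24, adjusted p 0.249). On chromosome 23 lie 3 carboxylesterase family models of equal coding length, 2430 bases, side by side, among which reads may have been split. Copy a had 1.86, 2.18 and 0.773 against 1.18, 0.824 and 3.89 CPM (adjusted p 0.871), and copy b 1.26, 1.30 and 0.579 against 1.67, 0.761 and 1.09 CPM (adjusted p 0.911). Summed, the 3 copies had 3.78, 3.84 and 1.93 against 3.89, 2.22 and 6.20 CPM (log2 fold change 0.37 ± 0.46, adjusted p 0.733). A shorter carboxylesterase model beside them, copy d of 1575 bases, is not in this sum. It had 3, 2 and 8 counts in normally-fed and 2, 3 and 22 in high-intake-fed birds.

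Colipase, the cofactor of pancreatic lipase, had 16, 10 and 12 counts in normally-fed and 82, 14 and 23 in high-intake-fed birds. High-intake-fed bird 1 stood apart, and bird 2 was inside the normally-fed range on the CPM scale (log2 fold change 1.71 ± 0.74, adjusted p 0.272). Without high-intake-fed bird 1 the log2 fold change was 0.50. A prokineticin domain model on chromosome 6, which carries the colipase-like lipase domain name, had 6.11, 5.08 and 4.96 against 2.08, 5.20 and 3.89 CPM (adjusted p 0.506).

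Of the 16 PLAT domain models, which are not lipases, 6 were at or above 1 CPM, and 2 of those had the smallest p-values of the 24 models tested. A polycystin or REJ type model on chromosome 14 had 6.51, 4.25 and 4.51 CPM in normally-fed and 1.53, 1.59 and 2.19 CPM in high-intake-fed birds, without overlap (log2 fold change -1.52 ± 0.35, adjusted p 0.0818 in edgeR and 0.00842 in DESeq2). A lipoxygenase on chromosome 8, of the family that oxidises polyunsaturated fatty acids, had 36, 36 and 28.5 against 18.4, 20.9 and 22 CPM, again without overlap (log2 fold change -0.71 ± 0.19, adjusted p 0.118). Neither passed the threshold. The other 4 had adjusted p from 0.382 to 0.669. Of these, a polycystin or REJ type model on chromosome 1 had 4.58, 2.54 and 5.79 against 2.85, 1.20 and 3.04 CPM, and one on chromosome 18 had 48, 53.5 and 57.3 against 59, 46.7 and 87.5 CPM. DENN domain models, guanine nucleotide exchange factors of membrane traffic, had 95.7, 84.6 and 106 against 70.4, 81.6 and 96.7 CPM on chromosome 6 and 65.8, 66 and 79.8 against 67.7, 57.2 and 38.8 CPM on chromosome 1.

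Partners of lipoprotein lipase and its relatives were counted next, from descriptions, so that most were known only to family. The list also holds lipase maturation factors and sortilins, which act inside the cell. A model entered under the apolipoprotein A1, A4 and E family is also the apolipoprotein B type model of the lipoprotein assembly list. Of the 28 models 26 were tested, 1 was higher, none was lower and 25 were not called, and their median log2 fold change was -0.03 against 0.04 over all tested models. With 1.47% of all tested models called, 0.643% higher, 1 of 26 is near the background and nothing is read from it about the list. By edgeR's unadjusted p under 0.05 there were 11 of 26, against 18.4% of all tested models. Without overlap between the groups, 7 lay higher and 5 lower, against 11.1% and 13.3% of all tested models. The one that rose was a proprotein convertase type 5 or 6 on chromosome 4, a class of protease that cleaves lipases in mammals, with 14.4, 15.1 and 12.9 CPM in normally-fed and 50.2, 43.8 and 29.3 in high-intake-fed birds (log2 fold change 1.54 ± 0.24, adjusted p 0.0305 by edgeR). That call held only without high-intake-fed bird 3 when each bird was left out in turn (adjusted p up to 0.164). A second convertase on chromosome 13 had 32.1, 27.2 and 27.3 against 37.6, 96 and 76.3 CPM (adjusted p 0.106).

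Sorting and docking proteins gave further values. A sortilin and LDL receptor type model on chromosome 26, of the kind that carries lipoprotein lipase to lysosomes in mammals, had 557, 676 and 478 CPM in normally-fed and 240.3, 255 and 188 in high-intake-fed birds without overlap (log2 fold change -1.33 ± 0.27, adjusted p 0.0603). A sortilin on chromosome 28 had 30.4, 28 and 28.3 against 42.2, 44.4 and 44.2 CPM (adjusted p 0.129). A syndecan on chromosome 2, a heparan sulfate carrier, had 488, 564 and 596 against 354, 183 and 227 CPM (adjusted p 0.123). None of the 3 passed the threshold. No model could be assigned from its description to apolipoprotein C2, the activator of lipoprotein lipase, or to GPIHBP1, which in mammals holds that lipase on the capillary wall.

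**Figure D5:**
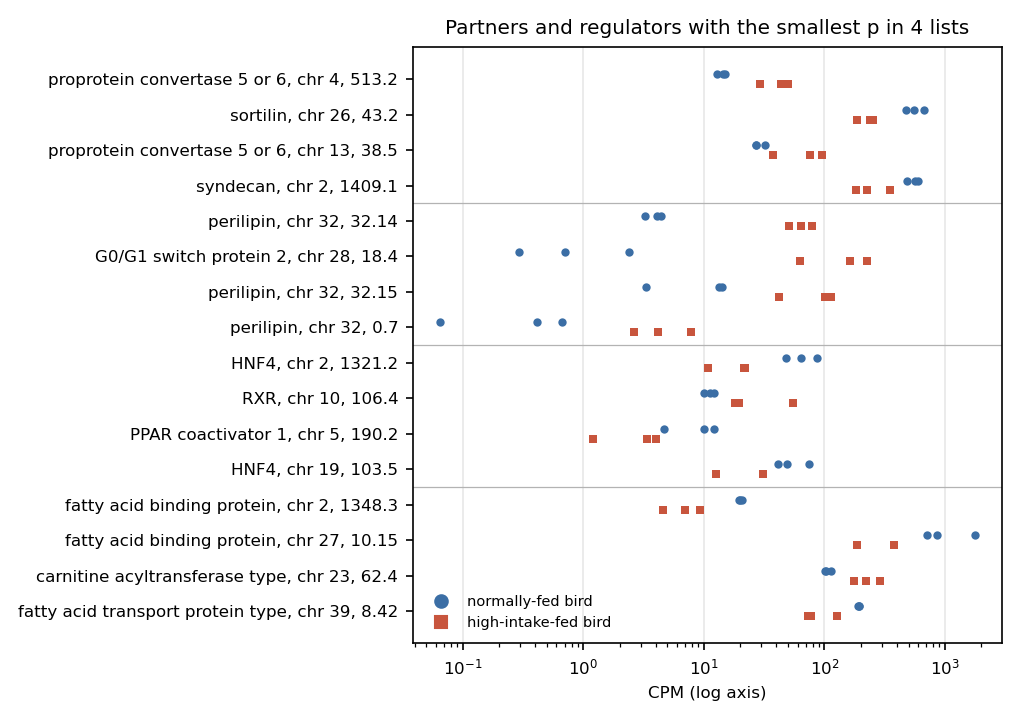
CPM on a log axis of the 4 models with the smallest p in each of 4 lists (partners, droplet proteins, regulators, and fatty acid uptake, from top to bottom), 1 circle per normally-fed bird and 1 square per high-intake-fed bird. The droplet proteins are the block in which all squares lie to the right of the circles, with the widest gap for G0/G1 switch protein 2.

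Droplet proteins and regulators of lipolysis inside the cell gave the list with the most models higher in force-fed birds. Of 19 models 16 were tested, 2 rose and none fell, where 0.643% of all tested models rose. The median log2 fold change was 1.79 against 0.04 over all tested models, and 11 of the 16 had all force-fed birds above all normally-fed birds, where 11.1% of all tested models did. Some of these models were near the filter in normally-fed birds and could pass it through the force-fed birds. Examples are G0/G1 switch protein 2 and a chromosome 32 perilipin with 0.664, 0.413 and 0.0644 CPM in normally-fed birds. Several perilipin models also lie side by side on chromosome 32. The median and the counts are therefore a description and no test. The list includes monoglyceride lipase and ABHD12, already described. With 1 bird left out in turn, the called perilipin kept its call 6 of 6 times and G0/G1 switch protein 2 5 times, losing it without normally-fed bird 3 (adjusted p 0.0784). G0/G1 switch protein 2, the inhibitor of the first enzyme of droplet lipolysis, had 2.39, 0.295 and 0.708 CPM in normally-fed and 62.9, 228 and 164 in high-intake-fed birds (log2 fold change 7.08 ± 0.82, adjusted p 0.0112 by edgeR). A perilipin, a droplet coat protein, on chromosome 32 had 4.38, 4.07 and 3.28 against 50.6, 79.5 and 64.6 CPM (log2 fold change 4.05 ± 0.26, adjusted p 0.000889). The neighbouring perilipin had 13.3, 14.2 and 3.35 against 41.8, 101 and 114 CPM (adjusted p 0.0522), and the most abundant, on chromosome 4, 227, 278 and 238 against 872, 1806 and 452 CPM (adjusted p 0.0868). Named after its values were seen, a patatin type PNPLA2 model, the domain of that first lipolytic enzyme, had 97.8, 82.5 and 108 against 255, 1227 and 117 CPM. The highest value was in high-intake-fed bird 2, the groups did not overlap, and the model did not pass the test (log2 fold change 2.47 ± 0.78, adjusted p 0.155). Another such model, also chosen after its values were seen, had 23, 29.3 and 25 against 14.2, 28 and 13.5 CPM (adjusted p 0.468).

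Among transcriptional regulators of lipase genes, 17 of 18 models were tested, 1 fell and none rose (median log2 fold change 0.37, against 0.04 over all tested models). With 1.47% of all tested models called, 0.829% lower, 1 of 17 is near the background. By edgeR's unadjusted p under 0.05 there were 6 of 17, against 18.4% of all tested models. Without overlap between the groups, 3 lay higher and 3 lower, against 11.1% and 13.3% of all tested models. The one that fell was a hepatocyte nuclear factor 4 type receptor on chromosome 2, of a class that maintains hepatocyte gene expression, with 47.7, 63.6 and 87.3 CPM in normally-fed and 21.5, 10.8 and 22.2 in high-intake-fed birds (log2 fold change -1.87 ± 0.34, adjusted p 0.0460 by edgeR). A second of the type, on chromosome 19, had 74.5, 41.3 and 48.7 against 12.7, 30.9 and 30.7 CPM (adjusted p 0.169). Another, on chromosome 14, had 80.4, 79.5 and 97.0 against 75.6, 58.8 and 125 CPM. Its groups overlapped (log2 fold change 0.01 ± 0.30, adjusted p 0.985), so the type did not fall as a whole. A PPAR coactivator 1 type model had 9.96, 4.72 and 12.1 against 4.03, 1.20 and 3.40 CPM (adjusted p 0.155), and an RXR, partner of the PPAR receptors that drive lipoprotein lipase in mammals, 12.1, 11.3 and 9.98 against 19.7, 18.2 and 55.3 CPM (adjusted p 0.131). None of the 3 PPAR models was called. The call of the hepatocyte nuclear factor 4 type model held only without high-intake-fed bird 3 when birds were left out in turn, with adjusted p up to 0.180.

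Fatty acid uptake and use gave values in both directions. Of 34 models 20 were tested, none rose and 1 fell (median log2 fold change -0.03, against 0.04 over all tested models), where 1.47% of all tested models were called and 0.829% were lower, so 1 of 20 is near the background. By edgeR's unadjusted p under 0.05 there were 6 of 20, against 18.4% of all tested models. Without overlap between the groups, 2 lay higher and 4 lower, against 11.1% and 13.3% of all tested models. A fatty acid binding protein on chromosome 2 fell from 20.8, 19.95 and 19.7 to 6.95, 9.26 and 4.62 CPM (log2 fold change -1.54 ± 0.28, adjusted p 0.0459 by edgeR), and the abundant one on chromosome 27 had 708, 860.5 and 1785 against 186, 377 and 186 CPM (adjusted p 0.0723). The call on chromosome 2 held without high-intake-fed bird 2 or 3 and was lost without each of the other birds (adjusted p up to 0.180). The other tested fatty acid binding proteins all overlapped between the groups, with log2 fold changes from -0.70 to 1.77, so the family did not fall as a whole. A fatty acid transport protein type model on chromosome 39 had 189.8, 194 and 192 against 77.2, 73.4 and 127 CPM (adjusted p 0.101). One of the same type on chromosome 37 lay higher without overlap, at 7.43, 6.32 and 8.24 against 15.1, 10.7 and 13.4 CPM (adjusted p 0.130). Those on chromosomes 23 and 33 overlapped between the groups (log2 fold changes 0.54 and -0.70). A carnitine acyltransferase on chromosome 23 had 103, 102 and 114 against 287, 176 and 222 CPM (adjusted p 0.0793). The other tested carnitine acyltransferases, on chromosomes 2, 10 and 6, overlapped between the groups (log2 fold changes 0.14, -0.15 and 0.03). In lipoprotein assembly none of 9 tested models was called by edgeR, where 1.47% of all tested models were, and 4 had an unadjusted p under 0.05, where 18.4% of all did. A TM6SF2 model on chromosome 32 had 16.6, 10.4 and 12.9 against 32.6, 90.5 and 25.6 CPM (adjusted p 0.1003). The TM6SF2 model on chromosome 13 overlapped between the groups, at 34.7, 37.6 and 55.1 against 60.7, 54.0 and 39.5 CPM (adjusted p 0.630). Microsomal triglyceride transfer protein on chromosome 5 had 577, 647 and 866 against 1589.5, 2398 and 843 CPM (adjusted p 0.182). The list of phospholipases and esterases held 30 tested models, of which 4 are lipase models already described. Of the 26 outside the rule none was called by edgeR and 8 had an unadjusted p under 0.05, against 1.47% and 18.4% of all tested models.

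Markers of the cell types a liver sample can hold were summed beside these results. Where a marker name matched several models, the one with the highest mean count was taken. None of the tested markers was called by edgeR at an adjusted p under 0.05, where 1.47% of all tested models were. The lack of calls is therefore not apart from the background, and the differences below are descriptions. Hepatocyte markers were the most abundant, at 208510.0 to 278572 CPM in normally-fed and 100007 to 221243 CPM in high-intake-fed birds. Most of the sum was albumin, with means of 195340 and 143699 CPM, and albumin and hemopexin overlapped between the groups. Transferrin lay lower without overlap (means 25544 and 8020 CPM), and the APOA1 type model lay higher without overlap (means 7505 and 19904 CPM). Over all tested models, 11.1% lay higher without overlap. The endothelial list, with 5 matched markers, summed to 231 to 357 CPM in normally-fed and 184 to 204 CPM in high-intake-fed birds, and all 5 had the lower mean in high-intake-fed birds, 2 of them, von Willebrand factor and LYVE1, without overlap, where 13.3% of all tested models lay lower without overlap. The stellate list, with 4 matched markers, summed to 361 to 458 CPM in normally-fed and 181 to 281 CPM in high-intake-fed birds. Its decorin and reelin lay lower without overlap, desmin overlapped, and lumican lay higher without overlap, at 2.92, 5.31 and 1.55 against 5.83, 6.34 and 6.50 CPM. The macrophage list summed to 373 to 417 CPM in normally-fed and 255 to 384 CPM in high-intake-fed birds, and both of its markers overlapped. The biliary list summed to 3.48 to 4.31 CPM in normally-fed and 1.94 to 2.54 CPM in high-intake-fed birds, with EPCAM lower without overlap. The part of these lists in the change of lipoprotein lipase was not tested. The adipocyte list held 3 markers, among them the abundant perilipin above, which was matched only to family and so is not specific to adipocytes. It summed to 277 to 337 CPM in normally-fed and 495 to 1934 CPM in high-intake-fed birds. Most of that sum was this perilipin, already counted among the droplet proteins (means 248 and 1043 CPM), followed by ADIPOR2 (means 59.1 and 104 CPM). The defining marker of the list, adiponectin, was near 1 CPM or lower in every library (0.730, 0.708 and 0.193 against 0.556, 1.20 and 0.425 CPM). Pancreatic acinar and muscle markers summed to no more than 5.83 CPM, and haemoglobin and band 3 to 207 to 365 CPM in normally-fed and 538 to 881 CPM in high-intake-fed birds.

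The profile of lipoprotein lipase over the 6 birds was shared most closely by 5 other models, named by the highest Pearson correlation of log2(CPM + 1) among 5032 candidates. They were a protein kinase C mu (r = 0.995), a model named both roundabout guidance receptor 2 and titin (r = 0.994), a bone morphogenetic protein 4 (r = 0.994), a dedicator of cytokinesis 2 (r = 0.994) and a plexin (r = 0.993). The 6 points fall into the 2 feeding groups, so each r mainly describes the gap between them, and by rank 18 candidates had the order of lipoprotein lipase, 1 of the 5 among them. The roundabout model had 51.2, 55.4 and 57.4 CPM in normally-fed and 3.13, 4.57 and 4.74 CPM in high-intake-fed birds, and the plexin 11.7, 13.2 and 12.3 against 0.417, 0.888 and 0.911 CPM. Their log2 fold changes were -3.72 and -4.04, and those of the other 3 were -1.07, -1.09 and -0.80, in each case a smaller difference than that of lipoprotein lipase.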

How the data were processed

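Liver RNA of 3 high-intake-fed and 3 normally-fed geese was sequenced after removal of ribosomal RNA, as stranded libraries. HISAT2 was the authors' aligner, and the deposited table holds unnormalized counts for each gene model. It also holds FPKM, computed by the authors from fragments, length and depth. The study names HTSeq and StringTie in other steps, and neither is tied to the deposited counts. The build, annotation and strand setting are not stated in the sources used here. FastQC and BWA stand in the submitters' processing notes without a version.

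Library totals were 14154910 to 16993373 counts. The main test was edgeR 4.0.16 with TMM scaling and no covariate. Its quasi-likelihood fit took the 12914 models that passed filterByExpr (count at least 10, total at least 15), and p-values were adjusted by Benjamini-Hochberg over all of them at 0.05. A ± after a log2 fold change is an approximate standard error, elsewhere the SD. It is the size of the log2 fold change divided by the square root of the quasi-likelihood F statistic, so it restates that test. Alternatives were DESeq2 1.42.0, RLE, library size alone, other filters, limma 3.58.1 on log2(CPM + 1), the replicate block and each bird left out. Summing the chromosome 23 copies was chosen after seeing the data. The fit was tested on simulated data.

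Models were named from their descriptions, often only to family. Every lipase model at or above 1 CPM is named, and from each list up to 6 with the smallest p and any called. Some further list models of the same names were added after their values were seen. One model of the partner list is not reported here. The members and lists were chosen with earlier results of these data known.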

Additional observations from a re-analysis of the deposited data

How the results depend on the processing

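The log2 fold change of lipoprotein lipase, chosen for this contrast, ran from -5.74 to -4.74 over the 14 alternatives that gave a value, a range that its choice bears on and that is no test. Of the other 24 lipase models, DESeq2 called the chromosome 14 PLAT model (log2 fold change -1.51), and edgeR without high-intake-fed bird 2 called endothelial lipase. No other alternative called any of these 24. Lipoprotein lipase, chosen for this contrast, is left out of these calls. The filter of at least 10 counts in every library dropped lipoprotein lipase, at 9 counts in high-intake-fed bird 1. Over all models, 190 calls became 335 with no filter beyond 1 count, 938 with DESeq2 and 61 with the replicate block, and ranged from 30 without normally-fed bird 3 to 511 without high-intake-fed bird 3. Calls in the partner and regulator lists were 5 in the main analysis, 4.27% of the 117 tested, against 1.47% of all tested models. They became 12 with no filter, 30 with DESeq2, 8 with limma trend and 2 with the replicate block, and from 1 to 13 without the same birds. All models tested were 18766 with no filter and 18727 with DESeq2. They were 12914 in the main analysis, with the replicate block and with limma trend, which called 211. The list models tested may differ by setting, so nothing is read from these list counts. The cause of these shifts was not tested.

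The replicate block lowered the calls over all models from 190 to 61. The labels give both groups the numbers 1 to 3 without saying that a number marks a shared source, so the numbers were not taken as pairs. The correlations of same-numbered birds' deviations were -0.172, 0.0379 and -0.184. With 3 birds a group such correlations cannot show or exclude pairs, and nothing is read from them.

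Leaving out 1 bird also turned the sign of 8 uncalled log2 fold changes, and the cause was not tested. The carboxylesterase copies on chromosome 23 ranged from -0.68 to 0.66 (copy a, below 0 without normally-fed or high-intake-fed bird 3) and from -0.17 to 0.39 (copy b, below 0 without normally-fed bird 3 or high-intake-fed bird 1). Hepatic lipase ranged from -0.56 to 0.12, above 0 without high-intake-fed bird 2. Lipase member H on chromosome 11 ranged from -0.15 to 0.98, acid lipase copy a from -0.48 to 0.076 and the chromosome 18 PLAT model from -4.78e-05 to 0.47, each turned by high-intake-fed bird 3. The class 3 lipases ranged from -0.065 to 0.24 on chromosome 18 (turned by high-intake-fed bird 1) and from -0.32 to 0.36 on chromosome 6 (turned by bird 3 of either group). At 3 birds a group and a common biological coefficient of variation of 0.356, changes of several standard errors were still not called, as the chromosome 14 PLAT model shows.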
